A study of Solanum lycopersicum with 2 samples.

Results

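The genes described here are those of tomato (Solanum lycopersicum) that make and split sucrose, make starch, phosphorylate hexoses and make inositol, together with carbonic anhydrases. They were chosen by symbol: a locus entered when a gene name in the deposited expression table began with SUS and a digit, SPS, LIN and a digit, TIV1, AGP, FRK, HXK, HK and a digit, INPS, IMP and a digit, STS or SBE, or was CA and a digit. This found 21 of 17803 gene loci, each holding 1 gene, on 11 of the 12 chromosomes, and no locus carried an HK, STS or SBE symbol. RNA came from young primary leaves of seedlings, with 1 library from wild-type plants (CK-1) and 1 from plants that overexpress SlRBZ (OV-5-1). The labels name no cultivar, promoter, plant age or number of pooled plants for either genotype, and whether OV-5-1 is a single transgenic line is not given in the sources used here. The design text mentions duplicates, but only these 2 libraries were analysed here, so no difference below has a replicate check, an error between plants or a test.

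In a leaf that exports sugar, sucrose-phosphate synthase makes sucrose in the cytosol and ADP-glucose pyrophosphorylase commits carbon to starch in the chloroplast. Invertases and sucrose synthases split sucrose again, the former into glucose and fructose and the latter into UDP-glucose and fructose, and hexokinases and fructokinases phosphorylate the hexoses that result. Inositol is made from glucose 6-phosphate by inositol-phosphate synthase and then inositol monophosphatase, and carbonic anhydrase interconverts carbon dioxide and bicarbonate. The comparison asks how genes of synthesis and of breakdown stood in the yellowed, dwarf overexpressor that the series title describes.

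Levels are the FPKM values that the authors deposited, fragment counts set relative to the length of the locus and the size of the library. A difference is log2(FPKM + 1) in the overexpressor minus that in wild type, a fold is taken on that same scale, where the change of low genes comes out too small, and a locus was called lower or higher at a fold of 2 or more. Calls were made where the mean of the 2 libraries was at least 1 FPKM, which 20 of the 21 genes reached, SUS2 being the exception. At an effective length of 1 kb, 1 FPKM stood for 14.3 fragments in the SlRBZ library and 7.47 in the wild-type library, and the 95% Poisson intervals given for low genes are for that length and cover counting error only. In bulk leaf RNA, fewer cells of a type and less RNA per cell cannot be told apart.

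Of the 20 genes, 11 (55%) were lower in the overexpressor by 2-fold or more, and 3 (15%) were higher. Over all 17631 gene loci that passed the filter, 15.0% were lower and 11.6% were higher. The median difference of the 20 genes was −1.09, against −0.05 for all gene loci. The counts followed the scaling of the libraries: 9 genes were lower and 4 higher at equal upper quartiles, 6 and 4 at equal sums without the 100 most abundant gene loci, and 4 and 5 at equal sums of all gene loci. Those scalings moved the median of all gene loci to 0.22, 0.57 and 0.95. Relative to the median of all gene loci, the median of the 20 genes lay at −1.04 on the deposited scale and between −1.04 and −1.02 under these scalings. A common factor nearly cancels in that distance, so the scalings are no check of it.

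**Figure D1:**
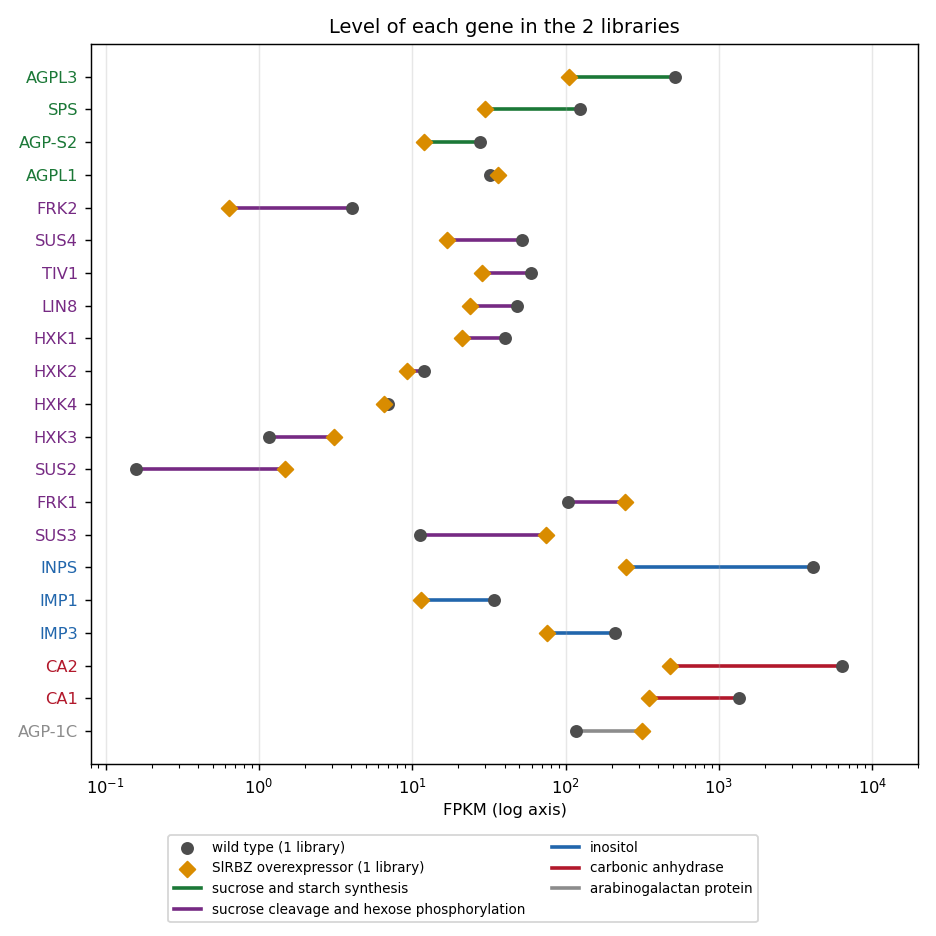
FPKM of each of the 21 genes on a log axis in the wild-type library (grey circles) and the SlRBZ overexpressor library (orange diamonds), joined by a line coloured by role, with 1 library per genotype and no error bars. INPS and CA2 span the longest distances to the left, from 4137 to 246 FPKM and from 6334 to 476 FPKM, while SUS3 runs to the right, from 11.2 to 74.2 FPKM.

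Sucrose synthesis was represented by SPS, sucrose-phosphate synthase, on chromosome 7 (2438924 to 2447625, plus strand). Its level was 124 FPKM in wild type and 29.9 FPKM in the overexpressor. This is a difference of −2.02, or 4.05-fold lower. Among the 9251 gene loci with a mean of 10 to 100 FPKM, only 231 had a more negative difference. Its difference was below 0 under every scaling, and at −0.97 it just missed the 2-fold limit at equal sums of all gene loci.

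Starch synthesis was represented by 3 loci with symbols of ADP-glucose pyrophosphorylase, which makes the glucosyl donor of starch. AGPL3, a large-subunit gene (chromosome 1, 71433306 to 71437595, plus strand), stood at 518 FPKM in wild type and 106 FPKM in the overexpressor, a difference of −2.28. It was the most abundant of the 3 in each library. AGP-S2 (chromosome 7, 11193230 to 11198373, minus strand) read 27.8 FPKM in wild type and 11.9 FPKM in the overexpressor, a difference of −1.16 that fell under 2-fold at each of the 3 other scalings. Its symbol reads as a small subunit, whereas RefSeq lists agpL2 as its synonym, so its subunit class is unclear. AGPL1, the other large-subunit gene (chromosome 1, 88397300 to 88401933, minus strand), read 32.2 FPKM in wild type and 36.4 FPKM in the overexpressor. At 1 kb their counting intervals, 28.2 to 36.5 FPKM and 33.4 to 39.7 FPKM, overlapped. The 3 genes did not move alike: AGPL3 was 16.1 times the level of AGPL1 in wild type and 2.91 times in the overexpressor. Their summed level was 578 FPKM in wild type and 154 FPKM in the overexpressor, and AGPL3 made up 89.6% and 68.7% of it.

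Taken as a group, SPS and the 3 pyrophosphorylase genes counted 3 lower and none higher among 4, with a median difference of −1.59. The sucrose-splitting and hexose-phosphorylating genes counted 3 lower and 2 higher among 10, with a median of −0.62. Over all gene loci, 15.0% were lower and 11.6% higher, and the counts of the 2 groups were not set against loci of like level. The synthesis median lay 0.97 log2 units below the breakdown median, a gap that stayed between −0.99 and −0.96 over the pseudocounts and scalings and widened to −1.25 when SUS2 was kept. A scaling multiplies the whole overexpressor library by 1 factor, which nearly cancels in this gap, so the scalings are no check of it. This gap rests on 4 against 10 genes in 1 library of each genotype and is given as a description. It was not set against loci of like level, whose median fell from 0.25 at 1 to 10 FPKM to −0.57 at 100 to 1000 FPKM. FRK2, HXK3 and HXK4 lay in the former class, and AGPL3 of synthesis and FRK1 of breakdown in the latter. The part of level in the gap was not tested. The breakdown median itself had no stable sign: it was 0.01 at equal sums without the 100 most abundant gene loci and 0.39 at equal sums of all gene loci, while the synthesis median was −0.95 and −0.56.

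Within breakdown, the sucrose synthases went in opposite directions. SUS3 (chromosome 7, 53300389 to 53305994, minus strand) read 11.2 FPKM in wild type and 74.2 FPKM in the overexpressor. It was 6.16-fold higher, a difference of 2.62. Of the 9251 gene loci with a mean of 10 to 100 FPKM, 140 had a larger positive difference. SUS4 (chromosome 9, 67652867 to 67658231, plus strand) read 52.3 FPKM in wild type and 16.9 FPKM in the overexpressor, 2.97-fold lower. Its difference of −1.57 kept its sign under every scaling and fell under 2-fold at equal sums without the 100 most abundant gene loci (−0.94) and at equal sums of all gene loci (−0.55). SUS2, which RefSeq also lists as SUS1 (chromosome 12, 2573928 to 2577879, minus strand), was low in each library, at 0.157 FPKM in wild type and 1.48 FPKM in the overexpressor. Its intervals at 1 kb, 0.00636 to 0.786 FPKM and 0.921 to 2.27 FPKM, did not overlap, but it was under the filter and was not called.

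The leading sucrose synthase was therefore a different gene in each library. SUS4 made up 82.2% of the summed sucrose synthase level in wild type and 18.3% in the overexpressor. The share of SUS3 was 17.6% in wild type and 80.1% in the overexpressor. These shares are ratios within a library, so the scaling between libraries does not enter them. The summed level was 63.6 FPKM in wild type and 92.6 FPKM in the overexpressor, a ratio of 1.45. That ratio follows the scaling, at 1.78 at equal upper quartiles, 2.31 without the 100 most abundant gene loci and 3.05 at equal sums of all gene loci. The genes are related copies, and how the authors' counting divided reads shared between copies is not given in the sources used here.

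Both invertase genes were lower by about the same amount. TIV1, the vacuolar acid invertase (chromosome 3, 47397595 to 47401871, minus strand), read 59.5 FPKM in wild type and 28.7 FPKM in the overexpressor, a difference of −1.03. LIN8, of the cell wall invertase family (chromosome 10, 62447578 to 62451825, minus strand), read 48.0 FPKM in wild type and 23.7 FPKM in the overexpressor, a difference of −0.99. These 2 genes stood just inside and just outside the 2-fold limit, and TIV1 was 1.24 times LIN8 in wild type and 1.21 times in the overexpressor. At equal sums of all gene loci their differences were 0.01 and 0.05, so the direction of both rests on the scaling. WIV-1, which RefSeq also lists as LIN6, lies 7133 bp from LIN8 on the same strand. It read 1.06 FPKM in wild type and 2.41 FPKM in the overexpressor, which was under 2-fold.

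**Figure D2:**
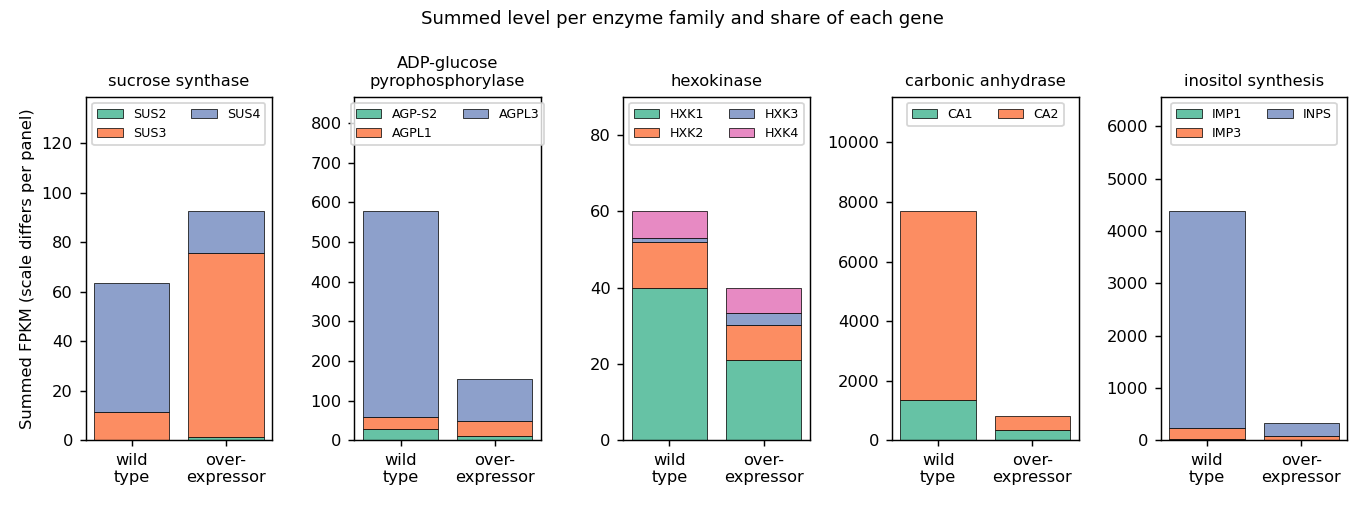
Stacked bars of summed FPKM for 5 groups of genes in the wild-type and the overexpressor library, each panel with its own linear axis from 0 and each colour 1 gene. The summed sucrose synthase level was 63.6 and 92.6 FPKM with SUS4 and SUS3 changing places as the larger part, while the summed carbonic anhydrase level was 7692 FPKM in wild type and 828 FPKM in the overexpressor.

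Among the kinases that take up free hexoses, fructokinase FRK1 was higher and the hexokinases were under 2-fold. FRK1 (chromosome 3, 1372645 to 1377406, minus strand) read 104 FPKM in wild type and 242 FPKM in the overexpressor, 2.32-fold higher. Every scaling multiplies the overexpressor by a factor above 1 (1.22, 1.59 and 2.09), so a higher call could not be lost under them. FRK2, the other fructokinase (chromosome 6, 41482871 to 41485991, minus strand), read 4.05 FPKM in wild type and 0.636 FPKM in the overexpressor. Their intervals at 1 kb, 2.73 to 5.77 FPKM and 0.292 to 1.20 FPKM, did not overlap, and the difference was −1.62. FRK2 shares 161 bp with CIP1 on the opposite strand, at 433 FPKM in wild type and 326 FPKM in the overexpressor. The strand handling of the counting is not given in the sources used here, so reads of the 2 loci may not be separable in that stretch. FRK1 carried 96.3% of the summed fructokinase level in wild type and 99.7% in the overexpressor.

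Hexokinases also act as glucose sensors in plants. As with 12941 of all 17631 gene loci, none of the 4 hexokinase genes reached a 2-fold difference on the deposited scale. HXK1 (chromosome 3, 63353339 to 63358640, minus strand), the most abundant, read 40.0 FPKM in wild type and 21.0 FPKM in the overexpressor, a difference of −0.90. HXK2 (chromosome 6, 38097051 to 38101667, minus strand) read 12.0 and 9.24 FPKM in the same order, with overlapping intervals of 9.60 to 14.7 FPKM and 7.73 to 11.0 FPKM. HXK4 (chromosome 4, 62985915 to 62990125, plus strand) read 6.93 FPKM in wild type and 6.50 FPKM in the overexpressor, a difference not detectable at this depth. HXK3 (chromosome 12, 1919229 to 1924150, minus strand) was the lowest, at 1.16 FPKM in wild type and 3.10 FPKM in the overexpressor. Its intervals at 1 kb, 0.522 to 2.23 FPKM and 2.25 to 4.16 FPKM, narrowly missed overlapping. The HXK3 difference of 0.92 became 1.34 at a pseudocount of 0.1 and 1.12 at a pseudocount of 0.5. It exceeded 1 under each other scaling too, all of which raise the overexpressor. HXK1 made up 66.6% of the summed hexokinase level in wild type and 52.7% in the overexpressor. At equal sums of all gene loci HXK1, HXK2 and HXK4 lay above 0, at 0.14, 0.65 and 0.88.

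The inositol genes found by the rule were lower throughout. INPS, inositol-phosphate synthase, the entry step to inositol (chromosome 4, 52329390 to 52332579, plus strand), read 4137 FPKM in wild type and 246 FPKM in the overexpressor. It was 16.8-fold lower, a difference of −4.07, the most negative of the 20 genes. By level it stood 115th among the 17631 gene loci in wild type and 830th in the overexpressor. IMP3, an inositol monophosphatase gene for the step that follows (chromosome 11, 5242451 to 5246432, plus strand), read 210 FPKM in wild type and 75.2 FPKM in the overexpressor, 2.76-fold lower. IMP1, of the same family (chromosome 4, 5038818 to 5042771, plus strand), read 34.1 FPKM in wild type and 11.5 FPKM in the overexpressor, 2.81-fold lower. The IMP genes thus kept their proportion, IMP3 making up 86.0% of their sum in wild type and 86.8% in the overexpressor, while INPS was 19.7 times IMP3 in wild type and 3.27 times in the overexpressor. INPS was at least 2-fold lower under every scaling, at −3.003 when gene loci had equal sums. IMP3 and IMP1 stayed below 0 but were under 2-fold at equal sums of all gene loci, at −0.41 and −0.49, and without the 100 most abundant, at −0.81 and −0.87. INS-1P, an inositol phosphate gene by its symbol, lies outside the rule and was named after its values were seen. It read 1032 FPKM in wild type and 481 FPKM in the overexpressor, so INPS may not stand for the whole entry step.

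Carbonic anhydrase, which is abundant in leaf chloroplasts, showed the next most negative difference. CA2 (chromosome 2, 44012267 to 44015926, plus strand) read 6334 FPKM in wild type and 476 FPKM in the overexpressor, 13.3-fold lower, a difference of −3.73. CA1 (chromosome 5, 355897 to 366580, minus strand) read 1358 FPKM in wild type and 352 FPKM in the overexpressor, 3.85-fold lower. CA2 was 4.67 times CA1 in wild type and 1.35 times in the overexpressor, so the 2 levels lay closer together there. CA2 stood 63rd by level in wild type and 418th in the overexpressor. CA2 kept a difference of −2.67 at equal sums of all gene loci, where that of CA1 was −0.88.

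AGP-1C was caught by the letters AGP but its symbol is that of an arabinogalactan protein, a proteoglycan of the cell wall and plasma membrane, and it was left out of the synthesis group. It read 117 FPKM in wild type and 314 FPKM in the overexpressor (chromosome 2, 48339964 to 48342204, plus strand), 2.66-fold higher. Of the other 19 genes that passed the filter, FRK1 and SUS3 were at least 2-fold higher, and SUS2, under the filter, had a difference of 1.10.

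**Figure D3:**
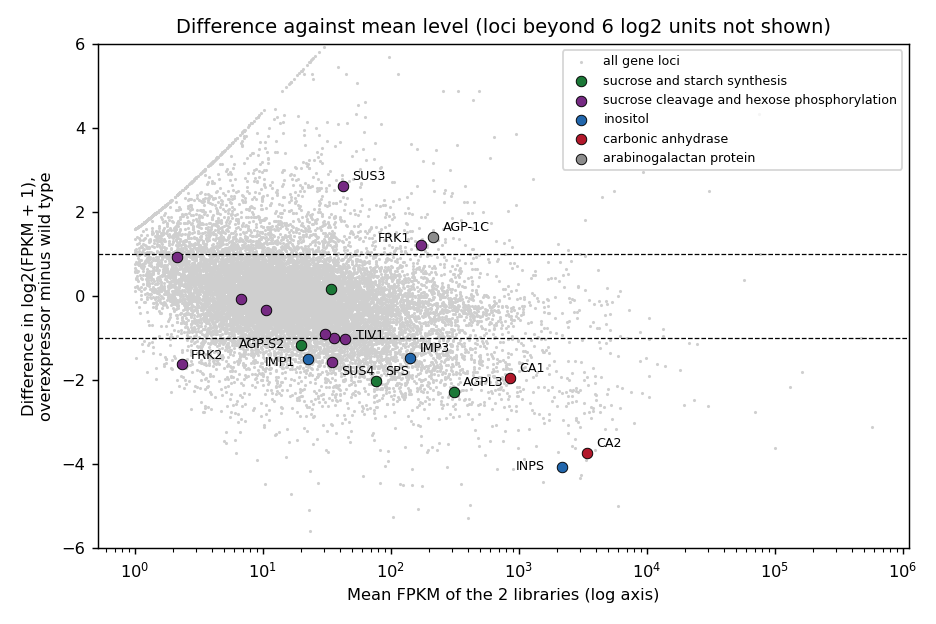
Difference in log2(FPKM + 1), overexpressor minus wild type, against the mean FPKM of the 2 libraries on a log axis, for all gene loci (pale points) and the 20 genes that passed the filter (coloured by role, named where the difference is 2-fold or more, dashed lines). INPS at −4.07 and CA2 at −3.73 lie at the lower edge among abundant loci, and SUS3 at 2.62 lies high for its level.

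Abundant loci were lower more often than rare ones, and the genes are read against loci of like level. Among the 278 gene loci with a mean of 1000 FPKM or more, 58.6% were lower and 4.68% higher, and 6 had a more negative difference than INPS and 9 than CA2. INPS and CA2 reached that class through wild type alone, as they read 246 and 476 FPKM in the overexpressor. Their place in the class is therefore not independent of their differences, and the ranks are given as a description. In the class of 100 to 1000 FPKM, 36.8% of 1927 loci were lower and 6.33% higher, and the 5 genes there counted 3 lower (AGPL3, IMP3 and CA1) and 2 higher (FRK1 and AGP-1C). In the class of 10 to 100 FPKM, 14.3% of 9251 loci were lower and 7.83% higher, against 5 lower and 1 higher of 10 genes. Of 6175 loci with a mean of 1 to 10 FPKM, 7.38% were lower and 19.2% higher, and of the 3 genes there, FRK2 was lower. The nearest gene loci on either side of the 21 genes, 41 in all, counted 5 lower and 5 higher (12.2% each), with a median difference of 0.07.

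Other genes of sugar, starch, inositol and ascorbate metabolism came from a list of symbols, of which 19 loci were measured and all passed the filter. At 6 of them (31.6%) the level was lower by the 2-fold rule, at none was it higher, and the median was −0.82, beside 15.0% lower and 11.6% higher over all gene loci. By level, 2 of 2 loci were lower at a mean of 1000 FPKM or more (58.6% of all gene loci there), 1 of 5 at 100 to 1000 FPKM (36.8%) and 3 of 11 at 10 to 100 FPKM (14.3%), so the count is not set apart from loci of like level. The split was 4 lower and none higher at equal upper quartiles, 2 lower and 3 higher without the 100 most abundant gene loci, and 1 lower and 4 higher at equal sums of all gene loci. GBSSI, granule-bound starch synthase, which makes amylose, read 1660 FPKM in wild type and 504 FPKM in the overexpressor, 3.29-fold lower. In starch breakdown, GWD, the glucan water dikinase that opens the granule to attack, read 47.2 FPKM in wild type and 23.5 FPKM in the overexpressor and stood at the 2-fold limit, with a difference of −0.98 that became −1.01 at a pseudocount of 0.1. The beta-amylase gene BMY3 read 103 FPKM in wild type and 62.2 FPKM in the overexpressor, under 2-fold. The BAM1 locus, also of beta-amylase, joins 2 genes and read 190.0 FPKM in wild type and 170 FPKM in the overexpressor.

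By their symbols, the other lower loci of that list lie in hexose phosphate and ascorbate metabolism. The GPI symbol, of glucose-6-phosphate isomerase, stood at 2 loci. The one on chromosome 12 read 112 FPKM in wild type and 17.7 FPKM in the overexpressor, 6.01-fold lower, and the one on chromosome 4 read 109 FPKM and 36.1 FPKM, 2.97-fold lower. In the ascorbate route, GGP (GDP-galactose phosphorylase) read 1430 and 657 FPKM and GME2 (GDP-mannose epimerase) read 473 and 180 FPKM in the same order. Their partners GME1 (390 and 216 FPKM) and GMP (106 and 57.4 FPKM) were under 2-fold. FBP, whose role rests on its symbol alone, read 70.6 and 29.6 FPKM and was 2.34-fold lower. Of the SnRK1 energy-sensing kinase, SNF1 read 44.9 FPKM in wild type and 26.4 FPKM in the overexpressor, and its subunit gene GAL83 read 16.3 and 21.4 FPKM. The PEP carboxylase gene PPC1 (55.9 and 31.2 FPKM), its kinases PPCK1 (41.6 and 54.9 FPKM) and PPCK2 (18.7 and 22.4 FPKM), and GAPDH on chromosome 3 (173 and 130 FPKM) and on chromosome 5 (758 and 588 FPKM) were under 2-fold as well.

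**Figure D4:**
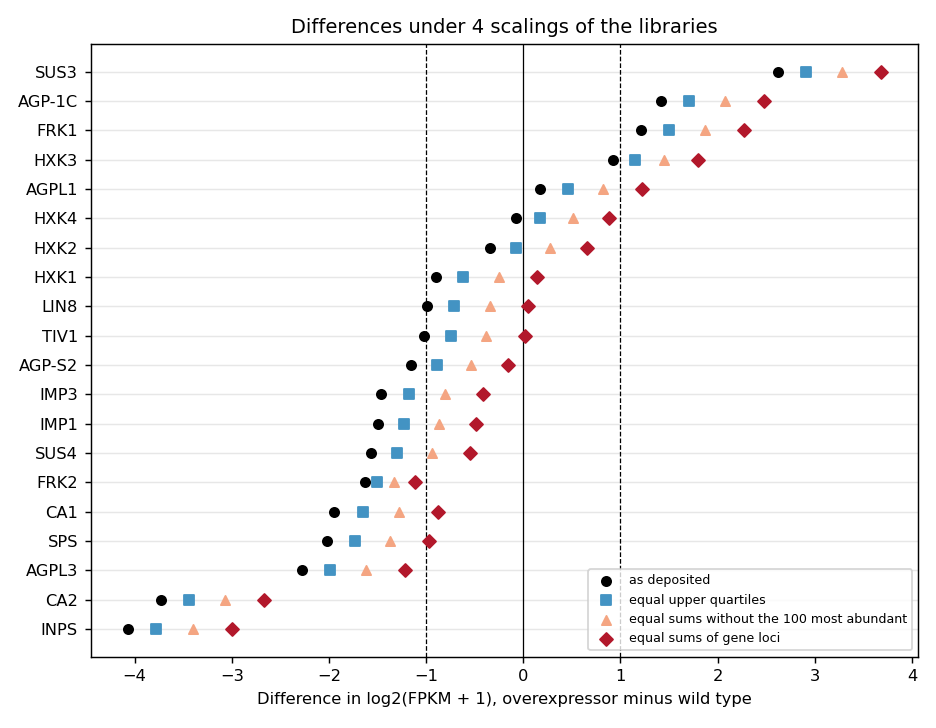
Difference in log2(FPKM + 1), overexpressor minus wild type, of the 20 genes under 4 scalings of the libraries, 1 symbol per scaling, with the 2-fold limits dashed. INPS, CA2, AGPL3 and FRK2 stay at or beyond −1 and SUS3, AGP-1C and FRK1 at or beyond 1 under all 4, whereas TIV1 moves from −1.03 to 0.01. The scalings other than the deposited one all raise the overexpressor, so a value beyond 1 could only stay there.

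Markers of leaf cell types differed in direction from list to list. Of 17 mesophyll loci (Rubisco small subunit and CAB symbols), 16 were at least 2-fold lower and none higher, with differences from −4.25 to −0.70 and a summed level of 280690 FPKM in wild type and 44234 FPKM in the overexpressor. Over all gene loci, 15.0% were lower and 11.6% higher, and at a mean of 1000 FPKM or more 58.6% were lower. The differences of INPS (−4.07) and CA2 (−3.73) lay within the mesophyll range, but only CAB5 (−4.25) among those 17 loci was more negative. The others lay above both, among them RBCS-1, RBCS-2A and RBCS-3B (−2.60, −2.62 and −2.75) and CAB1D (−3.62). The mesophyll loci named here were picked after their values were seen. Of 4 markers of dividing cells 2 were higher (summed 30.8 FPKM in wild type and 68.0 FPKM in the overexpressor), as was 1 of 3 of epidermis (6096 and 7114 FPKM). The higher share of all gene loci was 19.2% at 1 to 10 FPKM, 7.83% at 10 to 100 FPKM and 6.33% at 100 to 1000 FPKM. The 2 phloem markers (summed 20.0 and 16.8 FPKM) and the single trichome marker (2.50 and 3.01 FPKM) were under 2-fold, and no measured marker was at 0. Outside that list of phloem symbols, and named after its values were seen, LESUT1, the sucrose transporter that loads the phloem, was more abundant and lower, at 232 FPKM in wild type and 101 FPKM in the overexpressor (a difference of −1.19). The list of ripe fruit markers had no measured locus. The part of these cell types in the differences above was not tested. The transgene, whose level would check the labels, was not analysed here.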

How the data were processed

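Reads were aligned with TopHat, per the submitters' processing notes. The sources used here give neither its version nor the counting tool, annotation or genome build. The authors deposited FPKM for 22315 loci, 1 column per library, and coordinates are those of that table. Each column name matched 1 sample title, and 0 columns of values had no match. Depth was recovered from gene-free loci of at least 300 bp, where values are whole fragments: within a tolerance of 0.01, the whole share was 82.0% of 964 low values (overexpressor) and 85.1% of 1641 (wild type), with totals of 14.3 M (mega) and 7.47 M and a length offset of 199 bp. No count test was run on FPKM. Differences used a pseudocount of 1 FPKM and a mean of at least 1 FPKM (Python 3.11.15, pandas 2.3.3, scipy 1.17.1). The calls and the depth fit were tried on simulated data with counting noise only. The simulated calls held no genes low in wild type, no changes near the 2-fold limit and no variation between plants.

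With 1 library per genotype, no test or p-value was possible. Alternatives were 2 pseudocounts, 2 filters, 3 scalings and the exclusion of loci that join genes. A scaling to equal sums of all loci was not used, since 1 gene-free locus of 34 bp held 89.8% of the wild-type sum. Every gene of the rule is named, with the loci of the list of other pathway symbols, from which GGPS2 and SPPS were left out because only their first letters matched. Of the 21 symbols, 20 stood in a RefSeq gene table (assembly SLM_r2.1), each on the chromosome that the deposited table gives. Identifiers without a symbol could not be matched to it. The genes and lists were chosen with earlier results of these data known.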

Additional observations from a re-analysis of the deposited data

How the results depend on the processing

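The scaling of the libraries moved the counts and the medians. The gap between synthesis and breakdown, in which a common factor nearly cancels, stayed between −0.97 and −0.96 under the scalings. At equal upper quartiles of gene loci, the median of the 20 genes was −0.82 and that of all gene loci 0.22. At equal sums without the 100 most abundant gene loci, 6 genes were lower, the median of the 20 genes was −0.46, that of synthesis −0.95, that of breakdown 0.0087 and that of all gene loci 0.57, with 1149 loci lower and 4946 higher, and 2 lower and 3 higher among the other pathway loci. At equal sums of all gene loci, 4 genes were lower and 5 higher, with medians of −0.070 for the 20 genes, −0.56 for synthesis, 0.39 for breakdown and 0.95 for all gene loci, 653 loci lower and 8365 higher, 1 lower and 4 higher among the other pathway loci, and TIV1 at 0.015. Each such scaling multiplies the overexpressor by 1 factor (log2 of 0.29, 0.67 and 1.07), which shifts abundant genes alike. Without a filter the gap between synthesis and breakdown was −1.25, since SUS2 entered. With a filter of 5 FPKM, 1249 gene loci were higher, and at a pseudocount of 0.1, 1 pathway locus was higher. Of 14 genes called, 7 kept their call under every alternative that gave a value: INPS, CA2, AGPL3, FRK2, SUS3, FRK1 and AGP-1C. The scalings all raise the overexpressor, so they could not undo the higher calls of SUS3, FRK1 and AGP-1C. Over all gene loci, lower calls went from 2647 to 653 and higher calls from 2043 to 8365 at equal sums of all gene loci. The share of all called loci that kept their call is not given here, so the 7 of 14 has no background. FRK2 has no value at the filter of 5 FPKM. Depth limits the values of SUS2, HXK3, HXK4 and FRK2. No paired analysis was possible because each genotype has 1 library.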

Other observations

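Several sugar-related loci carry symbols outside the lists above and were picked after their values were seen, so they are given as values only. SLTPS1 on chromosome 7, read from its symbol alone as a trehalose-6-phosphate synthase gene, stood at 2.39 FPKM in wild type and 21.3 FPKM in the overexpressor, 6.57-fold higher. SLGOLS2, a galactinol synthase gene, whose enzyme uses inositol to start raffinose synthesis, read 6.65 FPKM in wild type and 15.5 FPKM in the overexpressor. LEAGAL, an alpha-galactosidase gene by its symbol, read 551 FPKM in wild type and 271 FPKM in the overexpressor. INS-1P on chromosome 5, whose symbol reads as an inositol phosphate gene, read 1032 FPKM in wild type and 481 FPKM in the overexpressor, 2.15-fold lower. LESDH, sorbitol dehydrogenase, read 141 FPKM in wild type and 46.5 FPKM in the overexpressor.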
